A study of Mus musculus with 16 samples.

Results

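Skeletal muscle of wild-type (WT) mice that had treadmill training was set directly against skeletal muscle of CHCHD4 Tg mice that had no training, by RNA-seq. The comparison took 8 of the 16 libraries of the series, 4 WT trained and 4 Tg untrained, and 17490 of the 55487 listed genes passed the filter on low counts. The 8 were chosen by their labels for genotype and training, and no measured value entered the choice. The design asked which molecular changes go with CHCHD4 and with exercise training, and this contrast set training alone beside the transgene alone without the WT untrained muscle that both are usually held against. WT untrained and Tg trained muscle, 4 libraries each, entered the fit for its estimate of spread but no mean of the contrast. Which muscle was taken, the strain, age and sex of the mice, the length of training, and the species, promoter and number of lines of the transgene are not given in the labels. Whether each library came from its own animal is not given either, and the p-values then measure only the spread among libraries, which may be technical.

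CHCHD4 (also called MIA40) is an oxidoreductase of the mitochondrial intermembrane space. It traps imported proteins that carry twin cysteine motifs by forming disulfide bonds in them, is bound and helped by AIFM1, and is reoxidised by GFER (ALR), which passes electrons to cytochrome c. Many small subunits and assembly factors of the respiratory chain, and the phospholipid carrier partner TRIAP1, use this route. Endurance training is known to raise mitochondrial content and capillary supply in muscle, and the coactivator encoded by Ppargc1a is a central regulator of that response.

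The 8 libraries held 40888325 to 54956652 expected counts each, and skeletal muscle fibre markers were abundant in all of them, with a summed level of 182630 to 214270 CPM. CPM here are counts scaled to the size of the library but not to gene length, so levels are compared within a gene only. Some libraries stood apart in Alb or Myh7. Alb, a liver transcript, measured 35.6 CPM in WT trained replicate 4 and 14.97 in Tg untrained replicate 2 against 0.036 to 0.236 in the other 6. Myh7, the myosin of slow fibres, measured 29.7 CPM in WT trained replicate 3, 64.3 in Tg untrained replicate 2 and 42.1 in Tg untrained replicate 3 against 1.91 to 6.62 in the other 5. Outside the 2 groups, WT untrained replicate 2 stood apart from its group, with 14.9 CPM of Alb, 11.2 of Myh7 and a normalisation factor of 1.285 against 0.934 to 1.105 in the 8 libraries. Fits without the libraries above 10 CPM of Alb, or of Myh7, therefore leave it out as well. In the fit without the Myh7 libraries, Tg untrained muscle keeps only replicates 1 and 4. That library enters no mean here but widens the common estimate of spread, so results are given with it and, where calls change, without it.

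Trained WT muscle and untrained Tg muscle differed in few transcripts at the spread of these libraries. By edgeR's quasi-likelihood test, with p-values adjusted by Benjamini-Hochberg over all tested genes and 0.05 as the threshold for a call, few genes passed. Of 17490 genes, 4 were called (0.0229%), with 3 higher in WT trained muscle (Spns2, Sbk2 and Sra1, 0.0172%) and 1 lower (Chchd4, 0.00572%). Chchd4 was the only called gene among the members of the 41 gene lists described here. In all, 1988 genes (11.4%) had an unadjusted p under 0.05, of which 930 (5.32%) were higher and 1058 (6.05%) lower in WT trained muscle. The 4 libraries of one group all lay above the 4 of the other in 728 genes (4.16%) for WT trained and in 564 genes (3.22%) for Tg untrained.

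The number of calls depended on which libraries entered the fit. Without WT untrained replicate 2, 285 genes (1.63%) were called, 178 (1.02%) higher and 107 (0.612%) lower in WT trained muscle. Of the 285, 271 had no overlap between the 8 libraries, beside 4.16% (WT trained higher) and 3.22% (lower) of all genes. Calls and separation come from the same values, so the separation is no further support for the calls. The biological coefficient of variation was 14.14% with WT untrained replicate 2 and 11.15% without it. A fit of only the 8 libraries compared, which also lacks that library, called 7 genes, 5 higher and 2 lower in WT trained muscle. DESeq2 on all 16 libraries called 219 genes (1.25%), 116 higher (0.663%) and 103 lower (0.589%), with 167 of the 219 among the 285, while limma-voom called 4. In what follows, "called" refers to edgeR with all 16 libraries unless the left-out library is named.

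A test that fails to call a gene does not show that its levels are alike, so the 95% interval of each log2 fold change (log2FC, WT trained minus Tg untrained) was also read. The interval lay inside a 1.5-fold difference in either direction for 10861 genes (62.1%) and inside a 2-fold difference for 14731 (84.2%). Among genes with a mean of 10 to 100 CPM the share within 1.5-fold was 92.8%, from 1 to 10 CPM it was 77.04%, and under 1 CPM it was 10.85%, where the median half-width of the interval was 0.658 on the log2 scale. Across all tested genes, the root mean square log2 difference between a WT trained and a Tg untrained library averaged 0.5197, beside 0.5163 between 2 WT trained and 0.4557 between 2 Tg untrained libraries. Each group's distance to WT untrained libraries, 0.5451 for WT trained and 0.5316 for Tg untrained, was larger than their distance to each other, and these averages include WT untrained replicate 2. Over the 500 most variable genes this order did not hold for Tg untrained libraries, at 1.72 from WT untrained and 1.783 from WT trained libraries. Over all tested genes both groups lay nearer to Tg trained libraries, at 0.4924 for WT trained and 0.479 for Tg untrained.

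**Figure D1:**
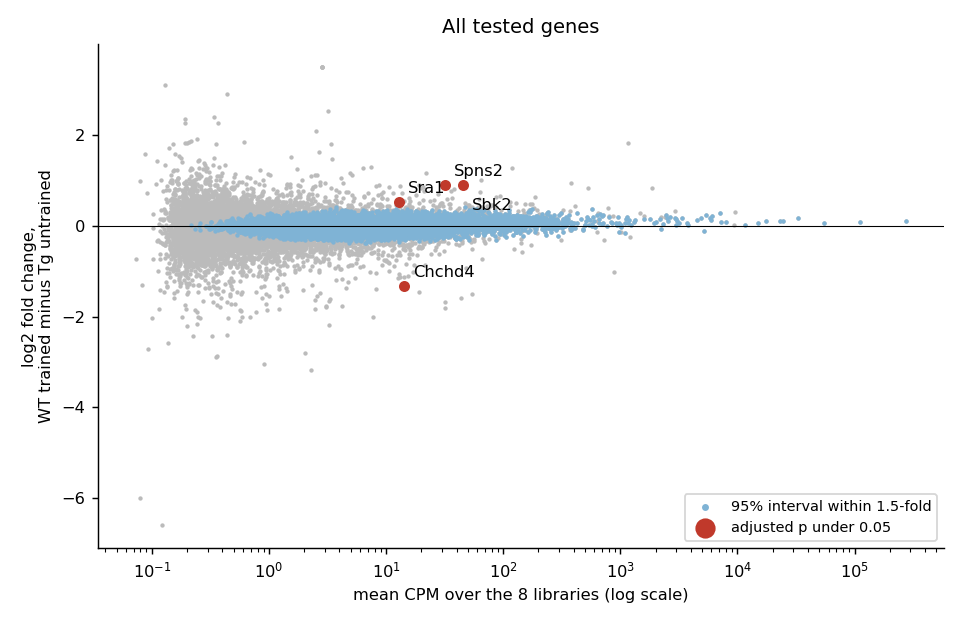
Each point is 1 of 17490 tested genes, with its mean CPM over the 8 libraries on a log axis and its log2FC, WT trained minus Tg untrained, on the vertical axis. The 4 called genes are red, and the 10861 genes whose 95% interval lies within 1.5-fold (blue) fill the middle band from about 1 CPM upwards, while genes of low level scatter most.

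Chchd4 itself was the transcript with the strongest statistical support. It measured 8.04, 8.85, 8.41 and 7.26 CPM in the WT trained libraries and 20.5, 20.4, 18.1 and 22.2 in the Tg untrained libraries. Every Tg untrained library was above every WT trained one. The log2FC was -1.32 (SE 0.083, adjusted p = 5.11e-07), a level 2.49-fold higher in Tg untrained muscle, and it stayed between -1.38 and -1.27 when any 1 of the 16 libraries was left out. Chchd4 (ENSMUSG00000034203.8) lies on the minus strand of GRCm38 chromosome 6, from 91462172 to 91473546. It measured 7.90 ± 0.885 CPM in WT untrained muscle (SD, n = 4), and the WT trained mean lay near that level.

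The partners of the relay did not pass the test. Aifm1, whose product anchors CHCHD4 to the inner membrane, measured 16.1 ± 1.06 CPM in WT trained and 14.97 ± 1.296 in Tg untrained muscle, with an interval of the log2FC from -0.12 to 0.33. Gfer measured 15.5, 16.6, 16.3 and 14.9 CPM in WT trained libraries and 15.2, 12.9, 13.1 and 12.9 in Tg untrained libraries. The log2FC of Gfer was 0.22 (interval 0.09 to 0.36, adjusted p = 0.18), and only Tg untrained replicate 1 reached into the WT trained range. For Triap1 the values were 4.35 ± 0.434 and 4.01 ± 0.274 CPM, with an interval from -0.06 to 0.30. All of these 3 intervals lay within 1.5-fold. In the whole list of the relay and Triap1, 5 of 8 tested members did. At an unadjusted p under 0.05, 2 of the 8 were lower in WT trained muscle, Chchd4 among them, and 1 was higher.

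Transcripts of proteins that the relay folds, or that carry the same twin cysteine motifs, were held within 1.5-fold in 31 of 32 tested members, beside 62.1% of all genes. That share depends on level and was 92.8% among all genes with a mean of 10 to 100 CPM. Their median log2FC was 0.10, and 28 of 32 were positive, beside 51.4% of all genes. Of the list, 0 were called and 2 had an unadjusted p under 0.05, both higher in WT trained muscle. Chchd2, an intermembrane space protein that also acts in the nucleus, measured 148, 142, 144 and 136 CPM in WT trained libraries and 126, 123, 115 and 125 in Tg untrained ones, which do not overlap (log2FC 0.23, SE 0.0732, adjusted p = 0.232). Without WT untrained replicate 2 it was called at 0.22 (adjusted p = 0.0276). Chchd1, a protein of the mitochondrial ribosome, measured 28.4 ± 1.21 and 24.8 ± 1.27 CPM.

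The 3 genes called higher in WT trained muscle had different levels in the other groups. Spns2, which exports the lipid mediator sphingosine-1-phosphate from cells, measured 37.9, 44.3, 44.1 and 38.3 CPM in WT trained libraries and 24.2, 20.8, 22.4 and 21.4 in Tg untrained libraries. All 4 Tg untrained values lay below all 4 WT trained ones, with a log2FC of 0.89 (SE 0.12, adjusted p = 0.012). WT untrained muscle measured 39.8 ± 9.41 CPM, near the WT trained level, and Tg trained muscle 28.4 ± 0.846. Spns2 lies on the minus strand of chromosome 11, from 72451638 to 72489904.

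Sbk2, which encodes a kinase of the SH3 domain binding family, measured 64.4, 66.1, 48.8 and 57.0 CPM in WT trained and 34.0, 36.2, 33.1 and 23.4 in Tg untrained libraries, without overlap (log2FC 0.90, SE 0.131, adjusted p = 0.0167). Here WT untrained muscle, at 38.5 ± 1.44 CPM, lay near the Tg untrained level and Tg trained muscle, at 55.5 ± 8.13, near the WT trained level. The gene lies on the minus strand of chromosome 7, from 4940512 to 4964406. Sra1, which gives rise to the steroid receptor RNA activator, measured 15.6, 15.3, 14.96 and 14.7 CPM in WT trained and 10.5, 11.3, 11.6 and 8.63 in Tg untrained libraries, again without overlap (log2FC 0.53, SE 0.0747, adjusted p = 0.0148). WT untrained muscle measured 14.3 ± 0.324 CPM of Sra1 and Tg trained muscle 12.2 ± 0.571.

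These 3 calls were close to the threshold. Spns2 was not called without WT trained replicate 2 (adjusted p = 0.0636), Tg untrained replicate 2 (0.0508) or Tg untrained replicate 3 (0.0685). Sbk2 was not called without WT trained replicate 1 (0.059), WT trained replicate 2 (0.0876) or Tg untrained replicate 3 (0.0747), and Sra1 not without WT trained replicate 1 (0.0555) or WT trained replicate 2 (0.0749). With only the 8 libraries of the comparison in the fit, Sbk2 (0.069) and Sra1 (0.089) were not called.

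**Figure D2:**
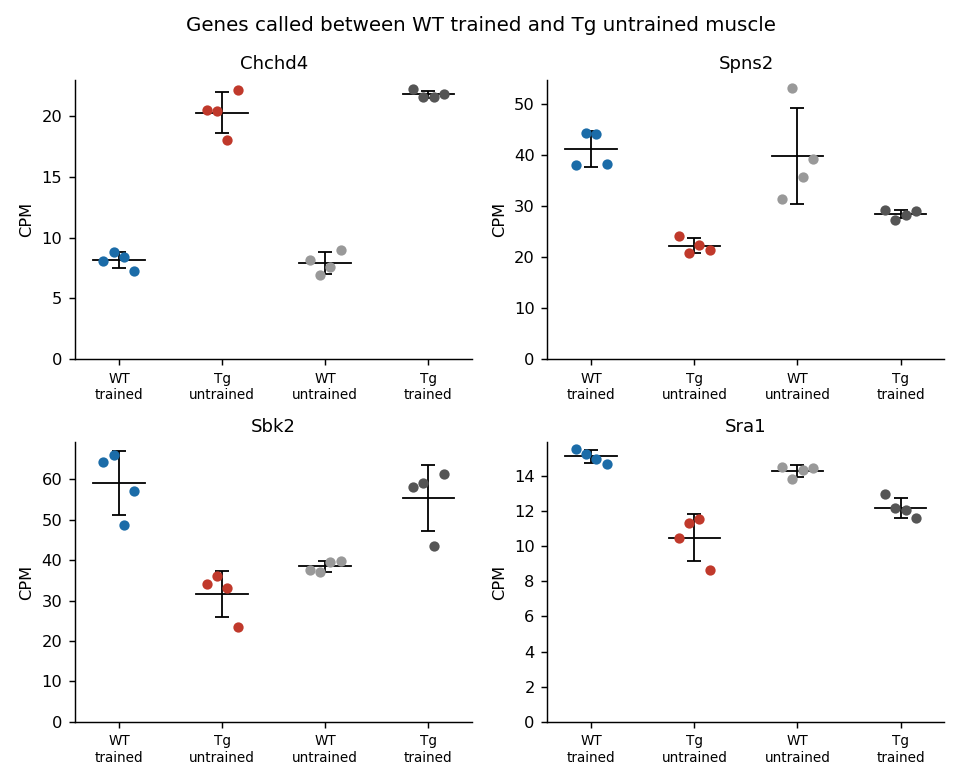
CPM of the 4 called genes in each library (points), with the mean and SD of each group of 4 libraries (bars). For Chchd4 the 2 Tg groups lie at 18.1 CPM or more and the 2 WT groups below 10 CPM, for Spns2 and Sra1 the WT groups have the higher means, and for Sbk2 the trained groups have.

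The genes next in rank by p were not called (adjusted p = 0.0801 for those named here), but all were called without WT untrained replicate 2. Higher in WT trained muscle were Slc38a4, a transporter of neutral amino acids (log2FC 0.77, 45.3 ± 9.63 against 26.5 ± 4.73 CPM), and Hacd1, an enzyme of very long chain fatty acid synthesis in muscle (0.48, 18.4 ± 1.51 against 13.2 ± 1.66). Myh8, the perinatal myosin, measured 4.48, 3.91, 8.04 and 6.24 CPM in WT trained and 3.37, 2.58, 2.87 and 2.96 in Tg untrained libraries (log2FC 0.94). Differences were smaller, with intervals inside 1.5-fold, for Clec16a, a regulator of mitophagy (0.27), for Nup210, a nuclear pore membrane glycoprotein (0.26), and for Snx3, a sorting nexin of endosomes (0.25). The noncoding transcript AI506816 had a log2FC of 0.55. None of these 7 had overlapping groups, as for 4.16% of all genes with WT trained higher. They were chosen by p in the same libraries, so this separation is no further support.

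Lower in WT trained muscle by the same rule were 9 genes besides Chchd4, none with overlapping groups. Among all genes 3.22% were lower in this way, and the choice by p favours such genes. Lep, the fat hormone leptin, measured 0.112, 0.718, 0.602 and 0.437 CPM in WT trained and 9.21, 2.81, 2.20 and 2.18 in Tg untrained libraries (log2FC -3.17, SE 0.64), with Tg untrained replicate 1 far above its group. The others were Aoc3, an amine oxidase of fat and vessels (-0.88), Ccn4 (-1.84) and Mgp (-0.86), which encode matrix proteins, and Slc5a3, the myo-inositol transporter (-0.89). The signalling genes Gnai1 (-0.98), Adcy3 (-0.66), Ptprd (-0.77) and Nedd9 (-0.81) completed them. For Nedd9, a scaffold of cell adhesion signalling, Tg untrained libraries at 13.3 ± 1.72 CPM also lay above the means of WT untrained (6.93 ± 1.80) and Tg trained muscle (7.89 ± 1.21).

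Nuclear genes of the respiratory chain were nearly level between the groups. All 33 tested complex I genes and all 40 of complexes II to V had intervals within 1.5-fold, with medians of 0.07 for both lists. Over all genes the share within 1.5-fold was 92.8% from 10 to 100 CPM and 88.56% from 100 CPM upwards. Values were positive for 30 of 33 and 33 of 40. The test called 0 in either list, with 1 complex I gene at an unadjusted p under 0.05, 0 in complexes II to V, and 0 called by DESeq2. That gene was Ndufs4, an accessory subunit of complex I, at 78.5, 78.5, 77.0 and 74.6 CPM in WT trained and 62.01, 65.2, 58.4 and 59.4 in Tg untrained libraries (log2FC 0.33, SE 0.0982, adjusted p = 0.182). Without WT untrained replicate 2, Ndufs4 (0.33, adjusted p = 0.00299) and Cox5a, a subunit of cytochrome c oxidase (0.21, adjusted p = 0.0417), were called. Without the libraries above 10 CPM of Myh7, which leaves replicates 1 and 4 of Tg untrained muscle, both medians changed sign. Complex I nuclear genes then had a median of -0.009826 and complexes II to V nuclear genes one of -0.03261. Tg untrained replicate 3, which that fit drops, had the lowest summed complex I level of the 8 libraries (2381.7 CPM). Whether slow fibre content plays a part was not tested.

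The mitochondrially encoded protein genes had positive values in 13 of 13 members, with a median of 0.16 and 0 called. The median was -0.0436 without the libraries above 10 CPM of Myh7. The highest log2FC of the list, 1.83, was that of mt-Co3, a subunit of cytochrome c oxidase, and came from 1 library: WT trained replicate 1 measured 5788 CPM, the other 3 measured 299.9 to 740.9, and without it the log2FC was -0.04.

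Among genes of pyruvate entry and the tricarboxylic acid cycle, 21 of 25 (84%) were within 1.5-fold and the median was 0.06. Over all genes this share was 92.8% from 10 to 100 CPM and 88.56% from 100 CPM upwards. Idh2, the mitochondrial NADP-dependent isocitrate dehydrogenase, stood out below: it measured 51.6, 51.3, 47.7 and 46.6 CPM in WT trained and 58.2, 69.6, 104 and 95.4 in Tg untrained libraries, with no overlap (log2FC -0.73, SE 0.219, adjusted p = 0.188, and 0.0216 without WT untrained replicate 2). Fatty acid uptake and oxidation had a median of 0.03 with 26 of 31 (83.87%) within 1.5-fold. Its member with the smallest p, Ucp3, an uncoupling protein of muscle, measured 88.6 ± 16.9 and 65.8 ± 10.2 CPM and overlapped. These 2 medians also turned negative without the Myh7 libraries, at -0.04122 for the tricarboxylic acid cycle and pyruvate entry and -0.07956 for fatty acid uptake and oxidation.

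Of 29 regulators of mitochondrial biogenesis and dynamics, 25 (86.21%) were within 1.5-fold. Over all genes this share was 77.04% from 1 to 10 CPM and 92.8% from 10 to 100 CPM. The median of the list was 0.02 and 0 were called, while 3 had an unadjusted p under 0.05. Ppargc1a, the coactivator PGC-1alpha, measured 32.0, 33.2, 51.8 and 58.9 CPM in WT trained and 26.9, 29.8, 27.3 and 30.7 in Tg untrained libraries. The groups did not overlap, and WT trained replicates 3 and 4 were well above replicates 1 and 2. Its log2FC was 0.62 (SE 0.197, adjusted p = 0.223), and it was called by a narrow margin without WT untrained replicate 2 (adjusted p = 0.0497). WT untrained muscle measured 28.9 ± 7.81 CPM and Tg trained muscle 35.6 ± 1.70. Sirt1, a deacetylase that acts on PGC-1alpha, was lower in WT trained libraries at 7.28 ± 0.37 against 8.44 ± 0.721 CPM, within 1.5-fold. Tfam (19.2 against 19.3 CPM) and Nrf1 (7.38 against 7.43 CPM), which drive mitochondrial DNA maintenance and respiratory gene transcription, had nearly equal means.

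Glycolysis and glycogen genes were positive in 21 of 28 members with a median of 0.12, and 0 were called, 2 at an unadjusted p under 0.05, and 2 by DESeq2. Phka1, a regulatory subunit of phosphorylase kinase in muscle, measured 626, 624, 682 and 668 CPM in WT trained and 547, 520, 491 and 456 in Tg untrained libraries (log2FC 0.37, SE 0.0973, adjusted p = 0.141). Without WT untrained replicate 2, members called higher in WT trained muscle included Phka1 (0.36), Pgk1, which makes ATP in glycolysis (0.34), and Pgm1, which links glucose-1-phosphate to glycolysis (0.27). The median of glycolysis and glycogen was 0.05471 without the Myh7 libraries and thus kept its sign.

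Contractile genes of fast fibres were positive in 18 of 20 members with a median of 0.18, and those of slow fibres were negative in 12 of 18 with a median of -0.30. In the fast list 5 members lay wholly higher in WT trained libraries, against 4.16% of all genes, and 0 of 20 were called in either direction. Myh2, the myosin of fast oxidative 2A fibres, went the other way from its list: 697, 564, 561 and 536 CPM in WT trained against 786, 1310, 1708 and 973 in Tg untrained libraries, without overlap (log2FC -1.02, SE 0.355, adjusted p = 0.269). It was called without WT untrained replicate 2 (adjusted p = 0.0275). WT untrained muscle measured 439 ± 219 CPM of Myh2 and Tg trained muscle 1490 ± 381, so both Tg means lay above both WT means. Sypl2, a triad junction protein, measured 123 ± 10.9 against 101 ± 7.23 CPM.

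The slow fibre values followed single libraries. Myl2, the slow myosin light chain, measured 1.80, 1.69, 6.73 and 2.31 CPM in WT trained and 2.43, 14.7, 29.9 and 2.56 in Tg untrained libraries, high in the same 3 libraries as Myh7. Without those libraries the median of slow fibre genes was -0.00419, and the log2FC of Myh7 itself went from -1.47 to 0.55. Whether the amount of slow fibre tissue in a sample plays a part in other results was not tested, and in bulk muscle fewer cells of a type cannot be told apart from less RNA per cell.

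Rcan1, a feedback inhibitor of calcineurin that calcium signals induce, measured 27.1, 28.2, 25.9 and 35.2 CPM in WT trained and 20.4, 20.2, 24.3 and 20.4 in Tg untrained libraries (log2FC 0.45, SE 0.101, adjusted p = 0.0963, and 0.0369 without WT untrained replicate 2). Its list of calcineurin, Rcan, Nfat and myogenic factors had a median of 0.05 over 21 members. Myf6, a myogenic factor of mature fibres, measured 34.8 ± 3.53 against 27.6 ± 3.81 CPM and overlapped.

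**Figure D3:**
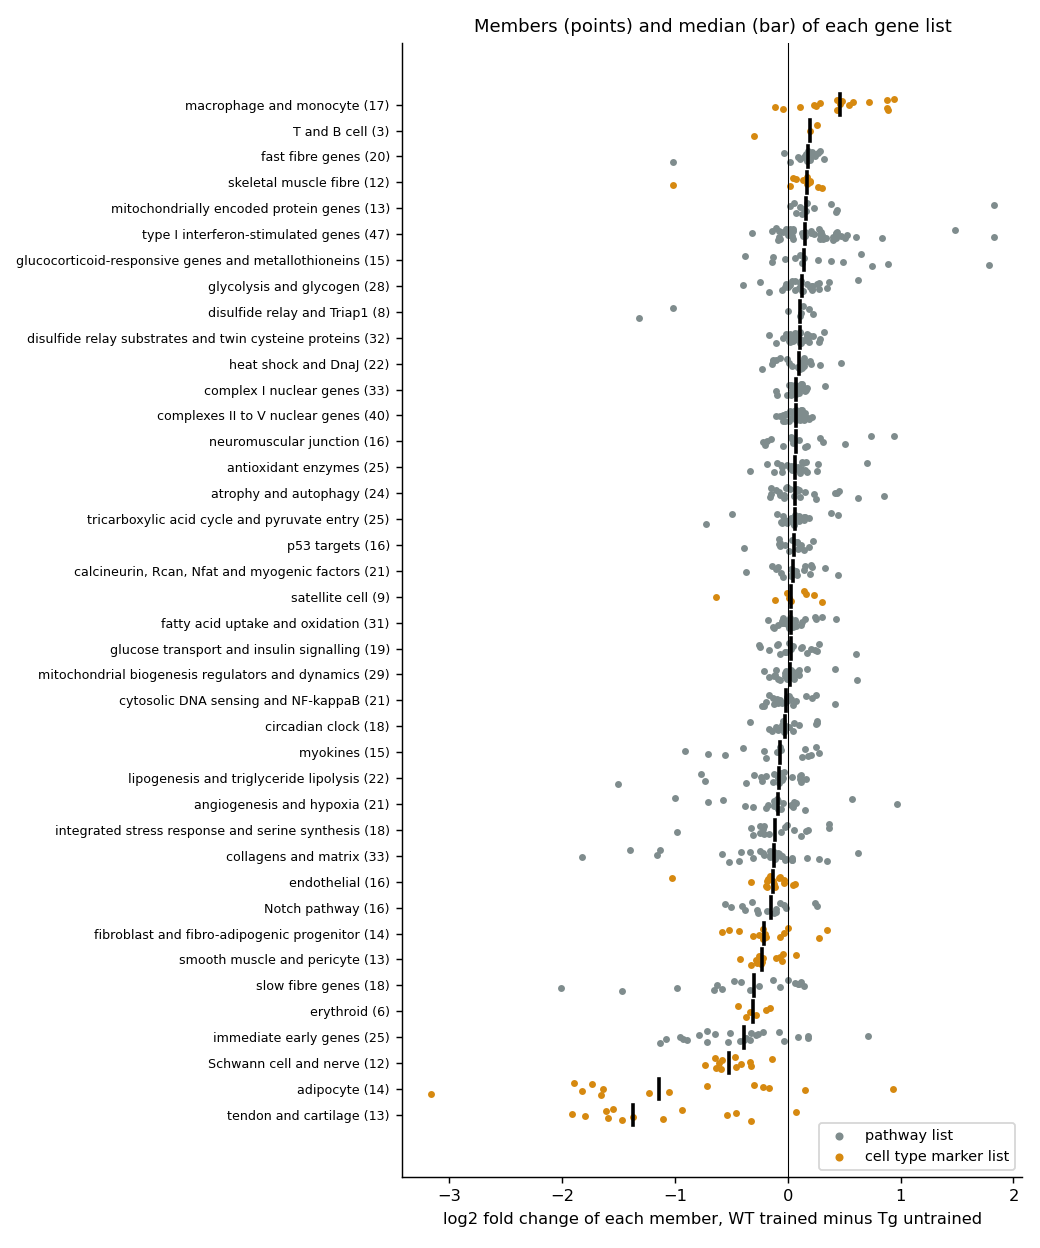
Each point is the log2FC (WT trained minus Tg untrained) of 1 tested member of a gene list, and the vertical bar is the list's median, with the number of members in brackets. Metabolic and respiratory lists sit close to 0, while tendon and cartilage (-1.37), adipocyte (-1.14), Schwann cell and nerve (-0.52) and immediate early genes (-0.39) lie lowest and macrophage and monocyte (0.46) highest.

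Immediate early genes, which cells transcribe within minutes of a stimulus without new protein, were mostly lower in WT trained than in Tg untrained muscle. Of 25 tested members, 21 were negative, beside 48.6% of all genes, and the median was -0.39. The test called 0, DESeq2 called 2 lower (0.589% of all genes), and 12 had an unadjusted p under 0.05, all 12 lower, where 6.05% of all genes did. Only 2 of the 25 were within 1.5-fold. Without WT untrained replicate 2, Dusp1, Ccn1 and Ier2 were called lower, as were 0.612% of all genes.

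The promoters of 4 of these genes are shown because they are members with values given here and hold the core of 5 bases of the cyclic AMP response element, through which calcium and cyclic AMP signals act on many early genes. Dusp1 alone of the 4 holds the full element. The sequences run from 250 to 51 bases before the gene start, 5′ to 3′ on the gene's strand, from RefSeq (GRCm38.p6). Capitals mark the core TGACG or its reverse complement CGTCA, and the full element TGACGTCA, which holds both.
Fos, chr12:85473640-85473839, plus strand: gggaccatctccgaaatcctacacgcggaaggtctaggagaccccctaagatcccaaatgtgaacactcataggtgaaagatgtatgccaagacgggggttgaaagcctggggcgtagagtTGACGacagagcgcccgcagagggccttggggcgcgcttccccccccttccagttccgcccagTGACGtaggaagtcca
Klf2, chr8:72318812-72319011, plus strand: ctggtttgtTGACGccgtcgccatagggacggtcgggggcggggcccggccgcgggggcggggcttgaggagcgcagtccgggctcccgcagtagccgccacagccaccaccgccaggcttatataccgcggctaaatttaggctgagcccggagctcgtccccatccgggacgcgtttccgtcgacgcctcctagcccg
Ccn1, chr3:145650036-145650235, minus strand: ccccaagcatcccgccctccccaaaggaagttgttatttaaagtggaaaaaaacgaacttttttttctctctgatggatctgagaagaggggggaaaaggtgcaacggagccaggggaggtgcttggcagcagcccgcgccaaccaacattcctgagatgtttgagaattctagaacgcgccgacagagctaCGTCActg
Dusp1, chr17:26508523-26508722, minus strand: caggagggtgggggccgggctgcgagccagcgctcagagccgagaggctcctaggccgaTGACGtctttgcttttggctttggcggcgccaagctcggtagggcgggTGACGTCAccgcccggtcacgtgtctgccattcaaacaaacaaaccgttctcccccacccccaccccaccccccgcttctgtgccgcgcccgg
Windows of 21 of the 26 listed early genes were searched, and 13 of the 21 genes held the core on either strand in any of their windows. Counted by window and not by gene, 12.7% of 32851 windows of the same 200 bases held it. The search of the list left out a chromosome whose windows this count kept, so listed genes on it were not searched. The full element was in 2 of the 21 genes, Dusp1 and Btg2, beside 0.828% of all windows. A match describes these letters and is not evidence of a bound site.

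The levels of these genes differed in how far they separated the groups. Fos, a subunit of the AP-1 factor, measured 5.88, 2.48, 11.2 and 13.4 CPM in WT trained and 7.72, 9.09, 39.0 and 16.1 in Tg untrained libraries. The groups overlapped and Tg untrained replicate 3 was highest (log2FC -1.13, SE 0.496, adjusted p = 0.395). Klf2, a flow-responsive factor of endothelium, measured 11.03, 7.29, 5.66 and 5.24 CPM against 10.8, 9.89, 13.6 and 16.4, with 1 WT trained library inside the Tg untrained range (log2FC -0.79, adjusted p = 0.145).

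Ccn1, a secreted matricellular protein, measured 12.6, 15.6, 8.49 and 10.6 CPM in WT trained and 16.8, 19.7, 21.4 and 20.1 in Tg untrained libraries, with no overlap (log2FC -0.72, SE 0.328, adjusted p = 0.419, and 0.031 without WT untrained replicate 2). Dusp1, a phosphatase of MAP kinases, measured 47.0, 45.0, 40.8 and 45.0 against 63.4, 53.9, 57.3 and 79.3, also without overlap (log2FC -0.51, adjusted p = 0.482, and 0.0301 without that library). Ier2, an early response nuclear protein, measured 1.38, 1.48, 1.28 and 0.812 against 2.19, 1.86, 2.05 and 3.31 (log2FC -0.93, adjusted p = 0.084). These 3 of 25 were the members of the list whose groups did not overlap, beside 3.22% of all genes that were lower in this way.

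In each of these genes the Tg untrained mean was the highest of the 4 groups. The means in WT untrained and Tg trained muscle were 3.50 and 3.28 CPM for Fos, 5.22 and 6.46 for Klf2, 1.24 and 1.29 for Ier2, 42.4 and 42.1 for Dusp1, and 18.3 and 14.6 for Ccn1. The median of immediate early genes was -0.2571 without WT trained replicate 2 and -0.2305 without Tg untrained replicate 3, and lay between -0.4879 and -0.3318 without each of the other 6 libraries compared.

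Single genes of the vessel wall separated the groups in the same direction. Apold1, an early response gene of endothelial cells, measured 11.2, 6.44, 5.39 and 5.26 CPM in WT trained and 11.9, 13.2, 14.9 and 17.0 in Tg untrained libraries (log2FC -0.999, SE 0.262, adjusted p = 0.139, and 0.0258 without WT untrained replicate 2). Bcl6b, a repressor expressed in endothelium, measured 7.42, 5.81, 3.51 and 2.48 against 9.03, 9.87, 10.5 and 9.99 (log2FC -1.03, SE 0.254, adjusted p = 0.119, and 0.0277 without that library). Neither gene had overlapping groups. The endothelial list as a whole had a median of -0.13, with 14 of its 16 members within 1.5-fold. Over all genes that share was 77.04% from 1 to 10 CPM and 92.8% from 10 to 100 CPM. The list's summed level ran from 316 to 357 CPM in WT trained and from 322 to 404 in Tg untrained libraries.

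The angiogenesis and hypoxia list had 6 members lower and 2 higher at an unadjusted p under 0.05, beside 6.05% and 5.32% of all genes. Of its 21 members 0 were called, and the median was -0.09. Besides Apold1, the ligands Apln (0.692 ± 0.237 against 1.14 ± 0.13 CPM) and Adm (0.888 ± 0.182 against 1.33 ± 0.208), which act on vessels, were lower in WT trained libraries, Apln without overlap. Vegfa, the main angiogenic factor of muscle, measured 118 against 106 CPM. Of 16 Notch pathway members 14 were negative, with a median of -0.15 and 0 called. Hey1 (2.30 ± 0.241 against 3.05 ± 0.329) and Dtx4 (3.00 ± 0.226 against 3.75 ± 0.183), a target and a modulator of the pathway, had the smallest p. Among smooth muscle and pericyte markers, 12 of 13 were negative with a median of -0.23, and Cspg4 and Pdgfrb, both pericyte surface proteins, did not overlap. Cspg4 measured 12.9 ± 1.67 against 17.3 ± 0.741 CPM and was called without WT untrained replicate 2 (log2FC -0.43, adjusted p = 0.0245).

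**Figure D4:**
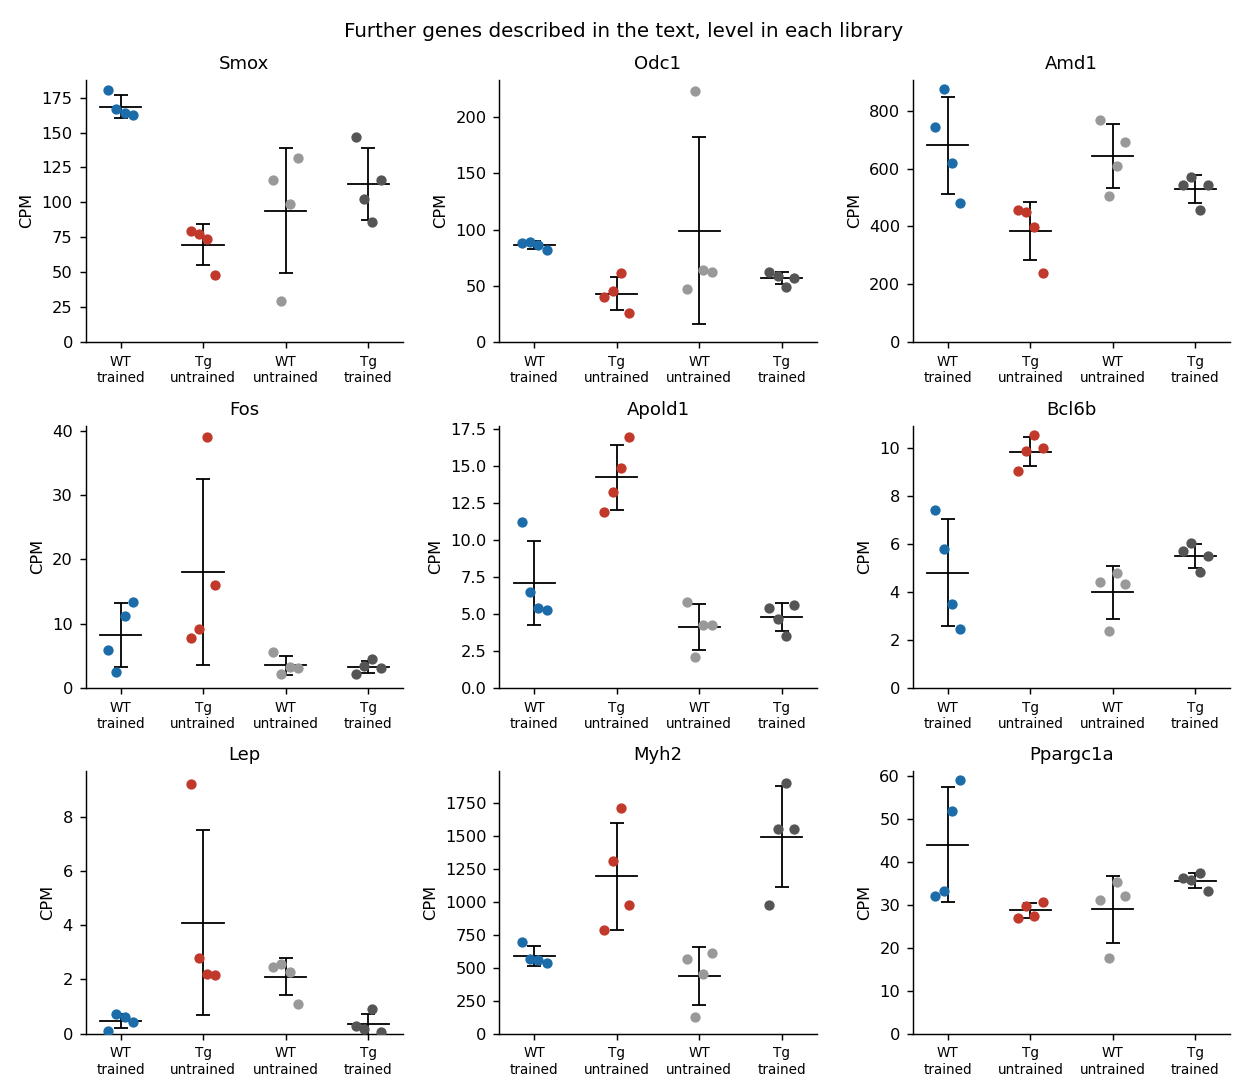
CPM of further genes in each library (points), with the mean and SD of each group of 4. Fos, Apold1 and Bcl6b have their highest mean in Tg untrained muscle, Lep has its lowest means in the trained groups, Myh2 its highest in the Tg groups, and Smox is higher in each WT trained library (163 to 180 CPM) than in any Tg untrained one (47.9 to 79.3).

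Markers of fat had mostly lower values in WT trained muscle, at low levels for most of the markers named here. Of 14 tested adipocyte markers 12 were negative, with a median of -1.14. The test called 0 and DESeq2 called 2 lower (0.589% of all genes). At an unadjusted p under 0.05, 10 were lower and 1 higher, beside 6.05% and 5.32% of all genes. The highest log2FC of the list was 0.93. Adipoq, the hormone adiponectin, measured 0.781, 2.22, 1.57 and 1.77 CPM in WT trained and 8.93, 4.49, 4.01 and 2.49 in Tg untrained libraries (log2FC -1.66, SE 0.515, adjusted p = 0.207). Cidec, a lipid droplet protein, did not overlap either at 1.22 ± 0.531 against 3.76 ± 2.13 CPM, while Plin1, the perilipin of fat cells, had 1 library inside the other range at 1.09 ± 0.485 against 3.81 ± 2.49. Tg untrained replicate 1 was highest for Lep, Adipoq, Plin1 and Cidec. The median of adipocyte markers without it was -0.9222, with 5 members lower at an unadjusted p under 0.05.

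The summed level of the adipocyte list, which Plin4 and Fabp4 dominate, ran from 281 to 469 CPM in WT trained and from 342 to 408 in Tg untrained libraries and so overlapped. In the lipogenesis and triglyceride lipolysis list 16 of 22 were negative, the median was -0.08 and 0 were called. Scd1, the desaturase that makes oleate, measured 17.5, 28.3, 30.6 and 35.8 CPM in WT trained and 144, 72.9, 79.3 and 22.5 in Tg untrained libraries. Tg untrained replicate 4 lay within the WT trained range (log2FC -1.51, SE 0.423, adjusted p = 0.164). The means of Scd1 in WT untrained and Tg trained muscle were 93.6 and 20.0 CPM, so both trained groups had the lower means.

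Tendon and cartilage markers had the lowest median of all lists, -1.37, with 12 of 13 negative and 9 lower at an unadjusted p under 0.05. Of all genes, 48.6% were negative and 6.05% lower at that p. The test called 0 and DESeq2 called 1 (1.25% of all genes). Chad, a cartilage matrix protein, measured 1.54, 0.394, 0.393 and 3.02 CPM in WT trained and 2.97, 4.75, 8.26 and 3.00 in Tg untrained libraries, which overlapped. Thbs4, a thrombospondin of tendon, measured 35.97, 15.9, 25.98 and 52.8 against 51.8, 68.5, 72.9 and 57.6, with WT trained replicate 4 inside the other range. The summed level of the list was 27.1 to 128 CPM in WT trained and 116 to 232 in Tg untrained libraries. Scx, the tendon lineage factor, measured 1.71 ± 0.198 against 2.14 ± 0.374 CPM and overlapped.

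Of collagens and matrix genes 26 of 33 were negative with a median of -0.13, and the largest differences were in Col12a1 (14.0 ± 11.1 against 49.7 ± 30.1 CPM) and Tnc (4.50 ± 3.61 against 12.02 ± 4.23), both matrix proteins of tendon and its junctions. Both overlapped between groups because of WT trained replicate 4, where Col12a1 was 30.3 and Tnc 9.78 CPM. Fibrillar Col3a1 was on the other side, at 218 against 171 CPM. Leaving out WT trained replicate 4 took the median of tendon and cartilage to -2.216 and that of collagens and matrix to -0.3392. Without the Myh7 libraries they were -0.6849 and 0.01602, and 0 and 1 members were lower at an unadjusted p under 0.05. The collagen median also changed sign without WT trained replicate 2 (0.003502). Without the Alb libraries, which also drops WT untrained replicate 2, 5 tendon and cartilage and 6 collagen and matrix genes were called lower, beside 0.812% of all genes. Leaving out WT untrained replicate 2 alone called 0 in either list.

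Schwann cell and nerve markers were negative in 12 of 12 with a median of -0.52, which became 0.05163 without the Myh7 libraries and -0.1581 without Tg untrained replicate 3. Their summed level was 37.4 to 62.7 CPM in WT trained and 42.1 to 98.6 in Tg untrained libraries. Erythroid markers were negative in 6 of 6, with a median of -0.31. Hbb-bs, a beta globin, measured 60.3 ± 4.01 against 76.2 ± 10.5 CPM. The part of these tissue and blood markers in the other results was not tested.

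Macrophage and monocyte markers had the highest median, 0.46, with 15 of 17 positive, beside 51.4% of all genes. At an unadjusted p under 0.05, 5 were higher (5.32% of all genes), and 0 were called by edgeR or DESeq2. Itgam, the CD11b integrin, measured 1.71, 1.39, 2.698 and 3.79 CPM in WT trained and 1.12, 1.62, 1.44 and 1.02 in Tg untrained libraries, which overlapped (log2FC 0.88, adjusted p = 0.234). Csf2ra, a receptor chain for GM-CSF, had no overlap at 0.949 ± 0.149 against 0.699 ± 0.0312 CPM. WT trained replicate 4 had the highest summed level, 128.6 CPM, against 39.7 to 74.6 in the other 7 libraries, and without it the median of macrophage and monocyte markers was 0.1462 with 0 members at an unadjusted p under 0.05. Satellite cell markers had a median of 0.03 and Pax7, the defining factor, overlapped (1.59 ± 0.316 against 1.29 ± 0.119 CPM). Of T and B cell markers 3 of 12 were at testable levels, and their values overlapped.

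**Figure D5:**
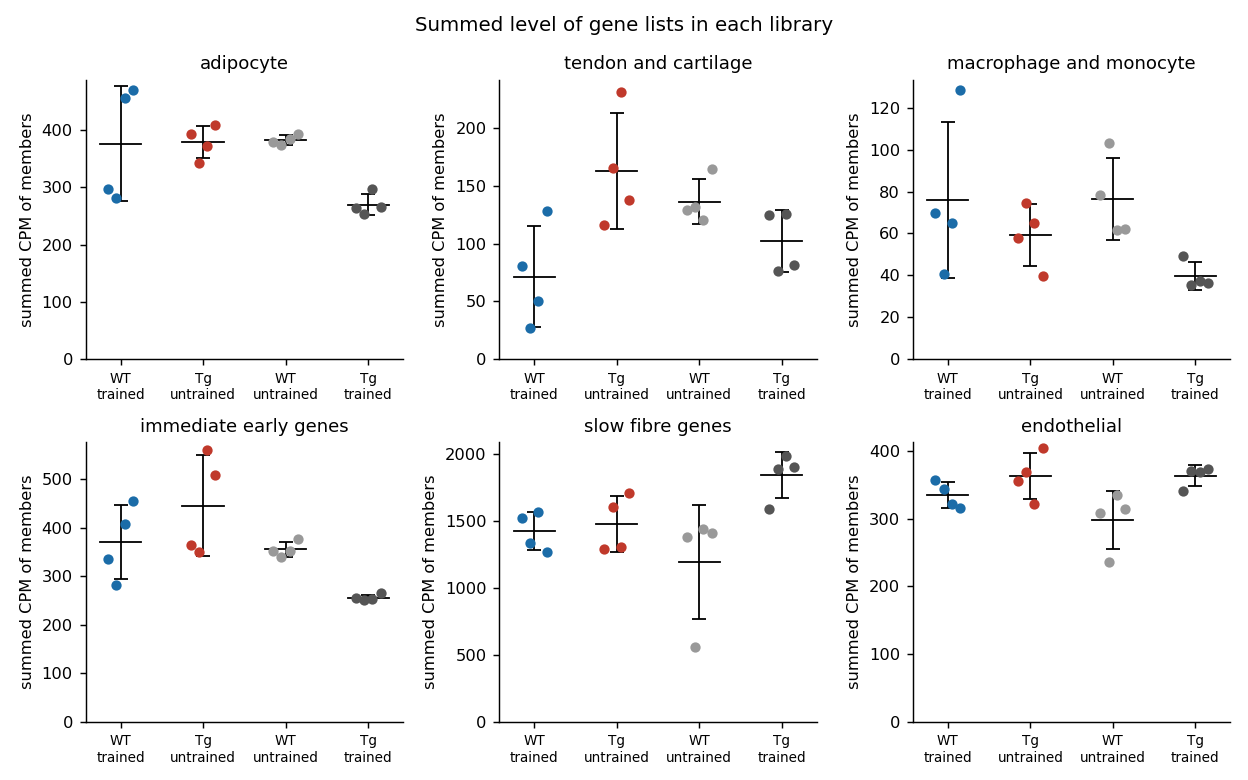
Summed CPM of the tested members of 6 lists in each library (points), with the mean and SD of each group of 4. WT trained and Tg untrained libraries overlap in all 6 panels, and WT trained replicate 4 has the highest macrophage and monocyte sum (128.6 CPM) and the highest tendon and cartilage sum of its group (127.9 CPM).

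None of the innate immune genes listed was called by edgeR. Type I interferon-stimulated genes were positive in 36 of 47 with a median of 0.15, and 8 were higher and 0 lower at an unadjusted p under 0.05, beside 5.32% and 6.05% of all genes. The test called 0 and DESeq2 called 1. Oas2, a sensor of double-stranded RNA, measured 1.54, 1.20, 2.25 and 2.16 CPM in WT trained and 0.863, 1.15, 1.03 and 0.951 in Tg untrained libraries, without overlap (log2FC 0.84, SE 0.199, adjusted p = 0.115, and 0.0478 without WT untrained replicate 2). Rsad2, the antiviral protein viperin, measured 2.61 ± 0.336 against 1.72 ± 0.426 CPM and overlapped. Of 47 members 23 were within 1.5-fold, beside 62.1% of all genes. Among all genes this share was 77.04% from 1 to 10 CPM and 10.85% under 1 CPM.

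The list of cytosolic DNA sensing and NF-kappaB had a median of -0.02, with 13 of 21 within 1.5-fold, 1 at an unadjusted p under 0.05 and 0 called by DESeq2. Cgas, the DNA sensor, measured 0.351 ± 0.0803 against 0.409 ± 0.0991 CPM, and its adaptor gene Sting1 1.10 ± 0.257 against 1.29 ± 0.237, with intervals of -0.81 to 0.35 and -0.63 to 0.22 that are too wide to place either within 1.5-fold. Samhd1, a hydrolase of deoxynucleotides, was higher in each WT trained library (12.2 to 13.8 CPM) than in any Tg untrained one (10.1 to 11.8), with a log2FC of 0.25 that was called without WT untrained replicate 2 (0.24, adjusted p = 0.0494).

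By edgeR, the lists of stress and turnover genes had 0 called members. Of 24 atrophy and autophagy genes, Map1lc3a, an LC3 protein of autophagosomes, measured 56.1, 54.2, 65.2 and 61.9 CPM in WT trained and 42.5, 37.8, 47.4 and 46.0 in Tg untrained libraries (log2FC 0.45, adjusted p = 0.342, and 0.0163 without WT untrained replicate 2). Hspb8, a small heat shock protein of chaperone-assisted autophagy, measured 209, 222, 198 and 189 against 161, 149, 154 and 125 (log2FC 0.48, adjusted p = 0.273, and 0.0168 without that library). Sgk1, a kinase that glucocorticoids induce, measured 129, 147, 164 and 165 against 114, 102, 102 and 112 (log2FC 0.49, adjusted p = 0.136, and 0.0118 without it). All 3 were higher in each WT trained library than in any Tg untrained one, and the medians of their lists (atrophy and autophagy, heat shock, and glucocorticoid and metallothionein genes) were 0.07, 0.10 and 0.14, with 16 of 24, 15 of 22 and 5 of 15 members within 1.5-fold. At an unadjusted p under 0.05 these lists had 3, 2 and 4 members, and DESeq2 called 0, 0 and 1.

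Phgdh, the first enzyme of serine synthesis, was lower in WT trained libraries (0.539 to 0.707 CPM) than in Tg untrained ones (0.805 to 1.62), with a log2FC of -0.99 (adjusted p = 0.142). Atf5, a factor of the mitochondrial stress response, measured 8.66 ± 0.265 against 10.7 ± 2.26 CPM, and Atf4 70.9 against 65.5. The integrated stress response and serine synthesis list had a median of -0.11 and turned to 0.02052 without the Myh7 libraries. The p53 targets (median 0.06, 12 of 16 within 1.5-fold), antioxidant enzymes (0.07, 18 of 25), circadian clock (-0.03, 14 of 18), glucose transport and insulin signalling (0.03, 13 of 19), neuromuscular junction (0.07, 7 of 16) and myokines (-0.07, 6 of 15) had 0 called members each by edgeR, with 0, 2, 1, 1, 3 and 2 members at an unadjusted p under 0.05. DESeq2 called 1 among them, in the neuromuscular junction list, which is Myh8.

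Some transcripts had close levels in WT trained and Tg untrained muscle, with the means of both below that of WT untrained muscle. Thap2, a zinc finger protein, measured 5.21, 6.25, 6.57 and 6.91 CPM in WT trained and 6.22, 6.39, 5.21 and 6.68 in Tg untrained libraries, with an interval of the log2FC from -0.20 to 0.25. Its neighbour Zfc3h1, an RNA exosome cofactor, measured 16.3 ± 1.09 and 16.04 ± 1.004 CPM, with an interval from -0.18 to 0.22. WT untrained muscle measured 11.7 ± 1.47 CPM of Thap2 and 28.6 ± 4.65 of Zfc3h1. Tg trained muscle was also lower than WT untrained muscle, with a log2FC of -0.808 for Thap2 and -0.807 for Zfc3h1 (Tg trained minus WT untrained). For these genes WT untrained muscle thus stood apart from all the other groups. Since the comparisons with WT untrained muscle share its libraries, no overlap between them was counted.

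A gene set chosen on the means of the other 8 libraries was also read here. The fit behind it shares its filter and its estimate of spread with this comparison, but no group mean. Between Tg trained and WT untrained muscle, 362 genes (2.07%) were called. Of these, 213 (58.8%) were within 1.5-fold between WT trained and Tg untrained muscle, beside 62.1% of all genes. That share depends on level, at 10.85% of all genes under 1 CPM and 77.04% from 1 to 10 CPM. The median log2FC of the 362 was -0.03. The 177 genes higher in Tg trained muscle (1.01% of all) had a median of -0.08 here, and the 185 lower ones (1.06%) a median of 0.01. Of the 362, 3 were called here (Chchd4, Spns2 and Sbk2), beside 4 of all 17490 genes (0.0229%).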

How the data were processed

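RNA from skeletal muscle was extracted with an RNeasy kit and sequenced from SMARTer libraries, per the labels' protocols. The deposited table holds expected counts per gene, made by the authors with RSEM 1.3.2 after STAR 2.7.8a on mm10, per the submitters' processing notes; the annotation release and strand setting are not given in the sources used here. The expected counts (12.48% of values not whole) were rounded and fitted with edgeR 4.0.16 in R 4.3.3: TMM factors, filterByExpr, all 16 libraries, 1 mean per group, the contrast WT trained minus Tg untrained, and Benjamini-Hochberg adjustment over 17490 genes. CPM were computed with TMM factors. Positions came from GENCODE M21 (GRCm38) for 17469 genes. In counts simulated for this comparison (17313 genes), 93 of 100 genes changed 2-fold and 98 of 100 changed 4-fold were called, and 8 unchanged genes. The changed genes were drawn from those with a mean of at least 1 CPM, and no simulated library stood apart. These shares therefore check the procedure and do not give the power of the fit to the real libraries. Alternatives used limma 3.58.1 (voom), DESeq2 1.42.0, RLE factors, other filters, a replicate term, and left-out libraries; those leaving out a library of the groups not compared, or the libraries rich in Alb or Myh7, were chosen after seeing the data. The groups, the 41 lists and this comparison were chosen with earlier results of these data known. Named genes were Chchd4, Aifm1, Gfer, Triap1, up to 10 per direction by fold change among called genes with a mean of at least 1 CPM (filled up by smallest p), and per list up to 4 called members or else the 2 with the smallest p; other genes were chosen after their values were seen. Sequences and motif windows came from RefSeq (GRCm38.p6). Some genes are not reported here.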

Additional observations from a re-analysis of the deposited data

Results flagged for a closer look

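In 27 of 368 sets of 4 libraries (7.34%), 1 library lay so far from the other 3 that its gap passed Dixon's limit for 4 samples. For independent normal values about 1 in 20 sets would pass. These sets share genes, and some genes were chosen after their values were seen, so the 2 shares cannot be compared. WT trained replicate 4 was the distant library in 6 sets. It was high for Alb (35.56 CPM, the other 3 at 0.074 to 0.236), for Trf, which encodes transferrin (16.09, others 6.6 to 7.068), for the summed hepatocyte list that holds both (51.65, others 6.739 to 7.142), for Ptprc, the pan-leukocyte marker CD45 (5.14, others 2.246 to 2.716), and for the summed myokines (422.7, others 347.9 to 357.4). It was low for Cox5a (136.4, others 151.9 to 154.4).

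WT trained replicate 3 was high for the slow fibre genes Myh7 (29.7 CPM, others 2.223 to 6.617) and Myl2 (6.731, others 1.69 to 2.31) and for the summed T and B cell list (29.2, others 23.03 to 23.85), and low for Apln (0.34, others 0.781 to 0.857) and Hipk2, a nuclear kinase (107.4, others 115.8 to 116.9). WT trained replicate 1 was high for mt-Co3 (5788, others 299.9 to 740.9). WT trained replicate 2 was low for Aen, a nuclease that p53 induces (21.37, others 23.36 to 23.64).

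Among Tg untrained libraries, replicate 1 was high for Lep (9.209 CPM, others 2.177 to 2.806) and Gfer (15.17, others 12.88 to 13.15). Replicate 2 was high for Alb (14.97, others 0.036 to 0.201) and low for Adm (1.024, others 1.398 to 1.465) and Oaz1, the ornithine decarboxylase antizyme (79.97, others 93.28 to 93.85). Replicate 3 was high for Nup210 (29.11, others 27.28 to 27.48), Ptprd (15.53, others 10.57 to 11.41), Rcan1 (24.32, others 20.17 to 20.42), the clock gene Bhlhe40 (70.22, others 59.79 to 61.43) and the summed neuromuscular junction list (222.4, others 181.6 to 187.9). It was low for Ndufb2 (43.26, others 48.04 to 48.21). Replicate 4 was high for Mt2, a metallothionein (2.561, others 1.083 to 1.167), the summed Notch pathway (188.4, others 158.7 to 163.4) and the summed smooth muscle and pericyte list (724.7, others 683.2 to 688.6).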

How the results depend on the processing

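The log2FC of Chchd4 stayed called under all 26 alternatives, between -1.409 and -1.267. The count of called genes was 4 with RLE factors, a filter of at least 1 CPM, limma-voom and the robust fit, and 5 with no filter on low counts. It was 219 by DESeq2, 7 with only the 8 libraries compared, 31 without the libraries above 10 CPM of Myh7 and 270 without those above 10 CPM of Alb, both of which also drop WT untrained replicate 2, and 1 to 285 when 1 of the 16 libraries was left out (1 without WT trained replicate 2, 285 without WT untrained replicate 2, 38 without WT trained replicate 4). The cause of these differences was not tested. The count within 1.5-fold ran from 10107 to 11275 of 17490 genes, and was 13086 of 33769 with no filter and 10381 of 12718 with the filter of at least 1 CPM. Same-numbered libraries of the 2 groups did not deviate together (correlations from -0.126 to 0.0119), and the fit with a replicate block called 4 genes. Among the named genes, 3493 of the alternative values kept direction and side of the threshold, 180 were newly called, 10 lost a call and 27 changed sign, of which none was called with all libraries. Without the Myh7 libraries the log2FC became -0.009151 for Triap1, -0.02544 for Eci2, 0.06755 for Mbp, 0.5499 for Myh7, 0.4861 for Tnnt1, -0.07916 for Thap2, -0.06942 for Myod1, 0.09346 for Sat1 and 0.04556 for Paox. Without the Alb libraries the log2FC of Thap2 became -0.01501, with -0.008211 for Ikbke and -0.03556 for Srm. Leaving out 1 library gave ranges of -0.04167 to 2.184 for mt-Co3, -0.07511 to 0.3912 for Ptprc, -0.07394 to 0.4386 for Ighm, -4.87 to 6.454 for Alb, -0.057 to 0.1041 for Thap2, -0.0237 to 0.06072 for Zfc3h1, -0.01678 to 0.1861 for Srm and -0.09497 to 0.03645 for Sat1. Depth limits genes under 1 CPM, of which 10.85% could be placed within 1.5-fold.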

Other observations

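Genes of polyamine metabolism were singled out after their values were seen. Smox, spermine oxidase, measured 180, 167, 164 and 163 CPM in WT trained and 79.3, 77.3, 73.7 and 47.9 in Tg untrained libraries, with no overlap (log2FC 1.28, SE 0.311, edgeR adjusted p = 0.117). With only the 8 libraries compared in the fit it was called (adjusted p = 0.0102), and so it was without WT untrained replicate 2 (adjusted p = 0.00239). Odc1, ornithine decarboxylase, the first enzyme of the pathway, measured 88.2, 89.2, 86.3 and 81.6 against 39.7, 45.1, 61.2 and 26.1 (log2FC 1.01, edgeR adjusted p = 0.299, and 0.0168 without WT untrained replicate 2). Every WT trained library was above every Tg untrained one for both genes.

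Amd1, S-adenosylmethionine decarboxylase, measured 743, 875, 620 and 481 CPM against 455, 448, 397 and 239 (log2FC 0.82, edgeR adjusted p = 0.115). Sms, spermine synthase, had group means of 69.7 and 52.6 CPM and Azin1, the antizyme inhibitor, 29.1 and 24.2, both without overlap. Reads of Amd1 may be shared with its copy Amd2 (13.7 against 7.54 CPM). The other members measured, Srm (log2FC 0.09), Sat1 (-0.01), Paox (-0.10) and Oaz1 (0.07), overlapped. The group means of Smox in WT untrained and Tg trained muscle were 94.2 and 112.9 CPM, between those of the 2 groups compared.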
